A study of Mus musculus with 12 samples.

Results

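RNA-seq counts of 6 Tin2 mutant libraries of mouse embryonic stem cells were divided into feeder-rich and feeder-poor libraries. All lines came from C57BL/6 blastocysts and grew on a feeder layer of mouse embryonic fibroblasts (MEFs), in medium with serum and LIF. Total RNA came from the cultures with their feeders, so every library, wild type included, can hold feeder RNA. The mutant lines Mut-1 and Mut-2 carry the genotype labelled Tin2 S341X. There are 3 libraries of each mutant line, which the series' design text calls technical replicates, and 3 of each of the 2 wild-type lines, named WT-1 or WT-2. The 3 mutant libraries with high levels of fibroblast genes are Mut-1 replicate 1, Mut-2 replicate 1 and Mut-2 replicate 2, and are called feeder-rich. The other 3, Mut-1 replicates 2 and 3 and Mut-2 replicate 3, are called feeder-poor. These are 6 of the 12 libraries of the series, and the 6 wild-type libraries took no part in the choice. The mutant libraries were selected on their own levels of fibroblast genes, with Col3a1, Postn and Ctgf as markers, so the differences between the groups are a description and are given with no p-value.

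Feeder fibroblasts are mesenchymal cells that supply embryonic stem cells with a surface of collagens and other matrix proteins and with secreted factors. Embryonic stem cells keep a network of transcription factors (Pou5f1, Sox2, Nanog and their partners) active, and lose it when they differentiate. Matrix and mesenchymal genes are also switched on when stem cells differentiate towards mesoderm or primitive endoderm, so in RNA from a mixed culture a fibroblast gene does not name its cell of origin. In bulk RNA, more fibroblasts and more RNA per fibroblast cannot be told apart.

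Library totals were 15702083, 16504142 and 16138574 counts in the feeder-rich libraries, 14766477, 16816094 and 15251613 in the feeder-poor libraries, and 15127354 to 17891894 in wild type. Values of a group stand in the order Mut-1 replicate 1, Mut-2 replicate 1 and Mut-2 replicate 2 for feeder-rich, and Mut-1 replicate 2, Mut-1 replicate 3 and Mut-2 replicate 3 for feeder-poor. The unit is CPM, a count scaled to library size, with TMM factors. Tinf2, the gene of the shelterin subunit TIN2, had 29.7, 29.7 and 27.3 CPM in feeder-rich libraries, 25.2, 20.1 and 19.8 CPM in feeder-poor libraries and 57.4 to 69.5 CPM in wild type. All 6 mutant libraries thus lay below all wild-type libraries.

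The fibroblast matrix list, 33 genes of collagens, their processing enzymes and matrix glycoproteins, took 2.40%, 2.01% and 2.11% of the counts in feeder-rich libraries. In feeder-poor libraries it took 1.26%, 1.08% and 1.28%, and in wild type 1.04% to 1.40%. The means were 2.17% ± 0.202 in feeder-rich and 1.21% ± 0.111 in feeder-poor libraries (SD, n = 3 each), a ratio of 1.80. Feeder-poor libraries thus lay within the wild-type range. The Wilson 95% interval of Mut-1 replicate 1 ran from 2.39% to 2.41%, so counting error is far below these gaps. It covers counting error only.

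**Figure D1:**
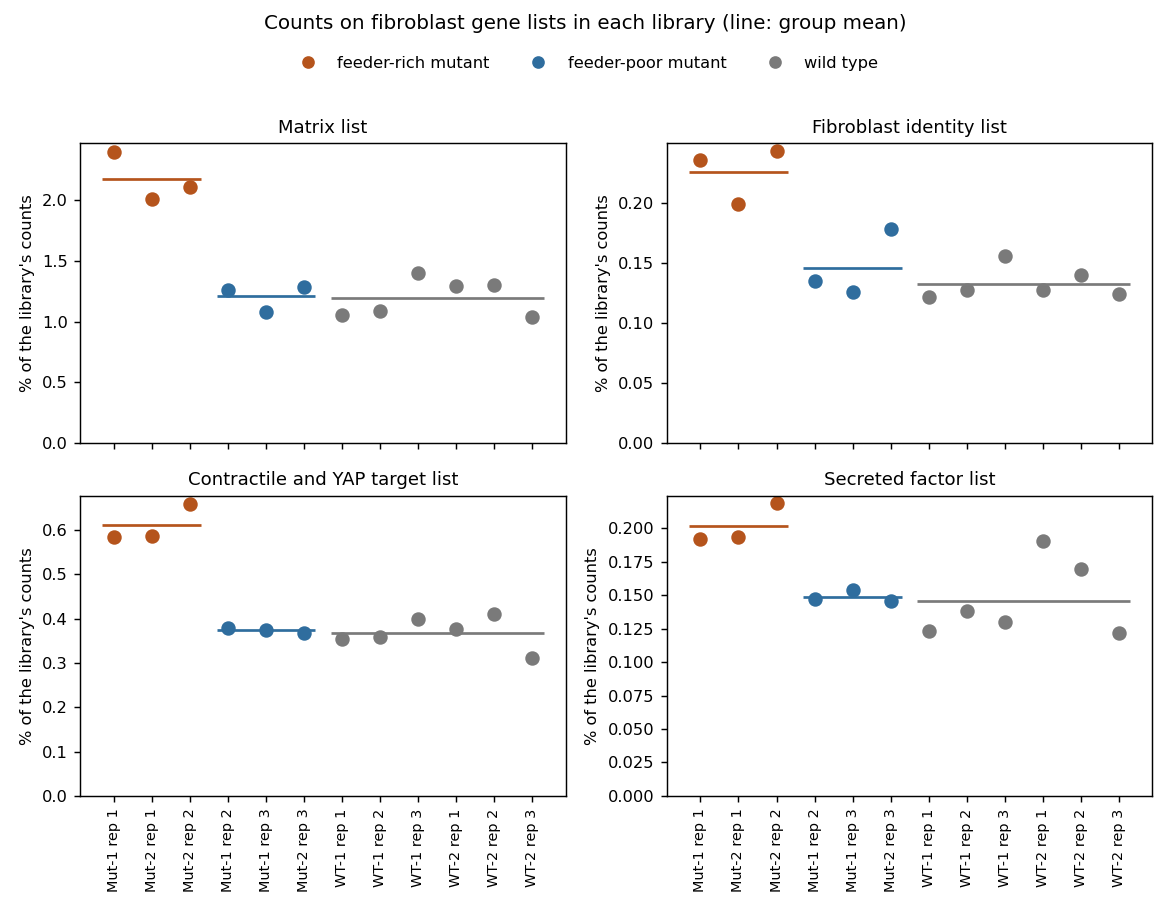
Percent of each library's counts on 4 fibroblast gene lists (vertical axes start at 0), with feeder-rich mutant libraries at the left, feeder-poor in the middle and wild type at the right; lines are group means. The matrix share was 2.01% to 2.40% in feeder-rich and 1.08% to 1.28% in feeder-poor libraries. For the identity list the highest feeder-poor library, Mut-2 replicate 3 at 0.178%, came near the lowest feeder-rich one, Mut-2 replicate 1 at 0.199%. In summed CPM with TMM factors these 2 libraries overlapped, at 1890 in Mut-2 replicate 3 and 1853 in Mut-2 replicate 1.

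A gene was called higher or lower when all 3 libraries of one group lay beyond all 3 of the other in CPM and the fold change, fitted by edgeR with the line as a term, was at least 1.5. Of 15973 genes that passed the count filter, 901 (5.64%) were called higher and 231 (1.45%) lower in feeder-rich libraries. Without the fold, 1779 genes (11.1%) separated upward and 1576 (9.87%) downward. The median log2 fold change over all genes was 0.02. These shares are the background for every list below. Replicate numbers run with the division, because both libraries numbered 1 are feeder-rich and both numbered 3 feeder-poor. With the replicate number as a block in place of the line term, 720 genes were higher and 100 lower. That fold is Mut-2 replicate 2 over Mut-1 replicate 2 alone, so it is also a difference between the lines, and block, line and class cannot be told apart in it. The separation required for a call is the same with the block, and only the fold changes. A call kept or lost with it below is therefore a description of these 2 libraries and no check of the division. Leaving out a library makes separation easier: without Mut-2 replicate 2 the calls were 1770 higher and 824 lower, without Mut-1 replicate 2 420 were lower, and without Mut-2 replicate 3 475 were lower. Without both libraries numbered 1, which was tried only once the data were known, 1299 were higher and 546 lower, of which 555 and 96 were among the 901 and 231.

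The line mattered for the size of the difference. Within Mut-1 it is replicate 1 less the mean of replicates 2 and 3, and within Mut-2 the mean of replicates 1 and 2 less replicate 3, both on the log2(CPM + 0.5) scale. Over 13274 genes of at least 2 CPM, 69.5% had the same sign in both lines, and the differences correlated across genes with r = 0.46 and rho = 0.51. Genes are not independent replicates, and the lines share the choice of libraries. The matrix list had a median of 1.09 in Mut-1 and 0.41 in Mut-2.

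Of the 33 matrix genes, all of which passed the filter, 21 were called higher and none lower, with a median log2 fold change of 0.73, or 0.42 without Mut-1 replicate 1. Since matrix genes made the division, nothing is read from these counts. Col3a1, the fibrillar type III collagen on chromosome 1 (45311538 to 45349706, plus strand, GRCm38), had 326, 202 and 246 CPM in feeder-rich libraries, against 156, 109 and 176 CPM in feeder-poor libraries. Its groups did not overlap, but Mut-2 replicate 1 was only slightly above Mut-2 replicate 3. Postn, the matrix protein periostin (chromosome 3, 54361109 to 54391037, plus strand), had 288, 187 and 188 CPM in feeder-rich libraries, against 115, 89.7 and 127 CPM in feeder-poor libraries. Ctgf, a secreted matricellular factor and target of the YAP coactivator (chromosome 10, 24595442 to 24598683, plus strand), had 729, 661 and 708 CPM in feeder-rich libraries, against 442, 422 and 302 CPM in feeder-poor libraries. Their log2 fold changes were 0.82, 1.03 and 0.97. Without Mut-1 replicate 1, Col3a1 and Postn lost the call at 0.35 and 0.56, and without both libraries numbered 1 at 0.499 and 0.58. Unlike the collagen, Ctgf differed more within Mut-2 (1.18) than within Mut-1 (0.76).

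Lox, which crosslinks collagen, had 2239, 1789 and 2118 CPM in feeder-rich libraries, against 1089.9, 897 and 1106 CPM in feeder-poor libraries. Thbs1, a matrix thrombospondin, had 2532, 2163 and 2618 CPM in feeder-rich libraries, against 1297, 1065 and 1313 CPM in feeder-poor libraries. In both, every feeder-rich library was well above every feeder-poor one, and the log2 fold changes were 0.997 and 0.98. Other matrix genes, of which Pcolce was chosen after its values were seen, show where the list split. Col6a1, a type VI collagen chain, had 147, 113 and 145 CPM in feeder-rich libraries, against 76.1, 55.9 and 118 CPM in feeder-poor libraries, so Mut-2 replicate 3 stood inside the feeder-rich range. Pcolce, which helps to process procollagen, had 180.1, 167 and 181 CPM in feeder-rich libraries, against 188, 170.4 and 168 CPM in feeder-poor libraries, and did not separate. Lum, which regulates collagen fibrils, had the largest fold of the list (1.09 on the log2 scale), but its 5.12, 1.86 and 2.18 CPM in feeder-rich libraries overlapped the 1.10, 0.806 and 2.44 CPM in feeder-poor libraries.

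The promoter of Col3a1 is printed because this gene marks the division. The sequence is RefSeq's for GRCm38.p6, 250 bases before to 50 after the start, on the plus strand at chr1:45311288-45311587, and capitals mark GGAATG, the core of sites bound by TEAD factors, the DNA-binding partners of YAP, read here on the opposite strand and beginning 168 bases before the start.
Col3a1: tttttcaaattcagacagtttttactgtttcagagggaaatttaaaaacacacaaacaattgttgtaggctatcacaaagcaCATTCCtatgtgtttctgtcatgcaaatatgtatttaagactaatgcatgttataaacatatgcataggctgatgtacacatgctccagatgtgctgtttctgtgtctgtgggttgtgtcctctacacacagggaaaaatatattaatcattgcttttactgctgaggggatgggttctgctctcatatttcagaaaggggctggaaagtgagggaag
The same letters on either strand were in 14.0% of 802 promoters of genes called higher, 12.5% of 14381 promoters of tested genes and 14.7% of all 32851 promoters of this length. A match is a description of letters and not a site.

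Fibroblast identity genes are mesenchymal transcription factors, surface receptors and cytoskeletal proteins. Of 27 in the list, 23 passed the filter, 8 were called higher and 1 lower, and the median log2 fold change was 0.48. Pdgfra, a platelet-derived growth factor receptor, had 15.4, 10.96 and 8.46 CPM in feeder-rich libraries, against 4.83, 3.66 and 5.93 CPM in feeder-poor libraries (log2 fold change 1.30). Pdgfrb, its mesenchymal relative, had 69.4, 57.8 and 60.6 CPM in feeder-rich libraries, against 34.3, 29.9 and 37.7 CPM in feeder-poor libraries (0.88). Twist2, a mesenchymal transcription factor, had 10.7, 5.88 and 11.3 CPM in feeder-rich libraries, against 3.59, 4.84 and 5.09 CPM in feeder-poor libraries (1.05). Both receptors and Twist2 separated in both lines. The exception, Osr2, a mesenchymal zinc finger factor, had 1.75, 1.75 and 9.77 CPM in feeder-rich libraries, against 11.7, 19.96 and 12.4 CPM in feeder-poor libraries. Its log2 fold change of -2.01 was the lowest of the list, and in wild type it ran from 0.961 to 12.1 CPM. Its call ended at -0.26 with the replicate block and at -0.33 without both libraries numbered 1.

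Among 20 contractile genes and YAP targets, 19 passed the filter, 4 were called higher and none lower, with a median of 0.36. Those called included the secreted matricellular factors Ctgf and Cyr61, both YAP targets, and Crim1, a transmembrane protein that binds BMPs. Acta2, smooth-muscle actin, had 479, 560 and 931 CPM in feeder-rich libraries, against 398, 505 and 513 CPM in feeder-poor libraries, and was highest by far in Mut-2 replicate 2. This gene was chosen after its values were seen.

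**Figure D2:**
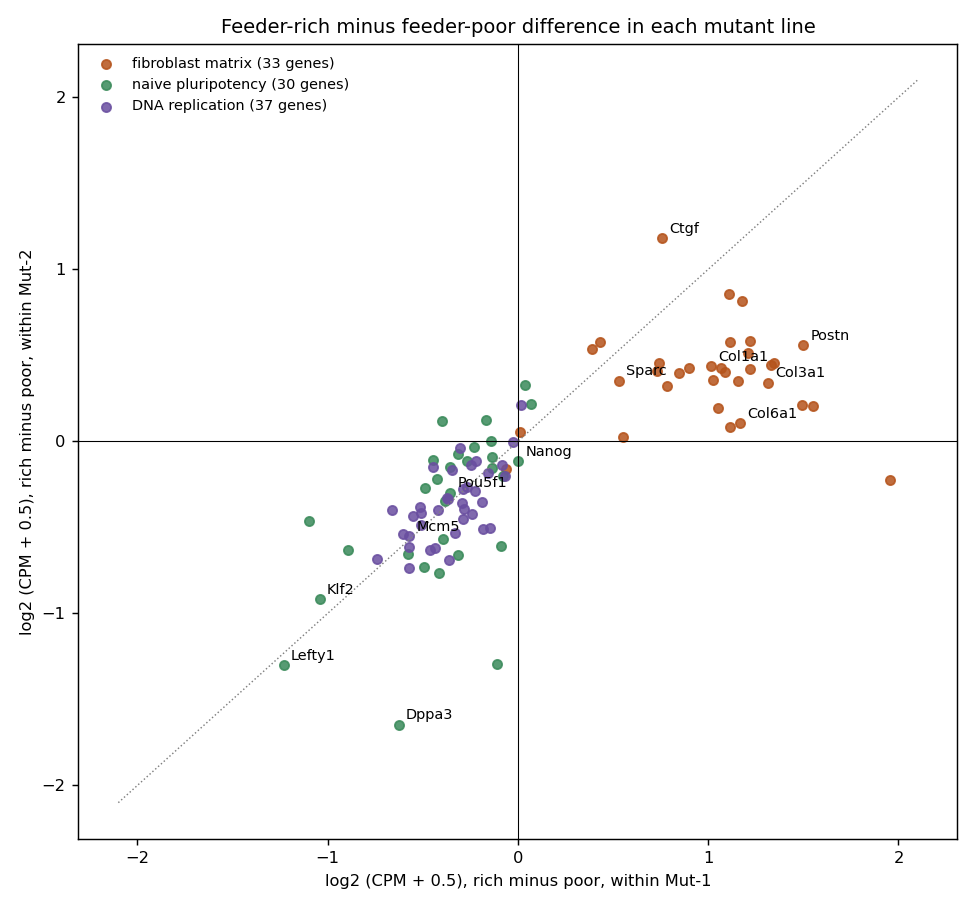
Difference of log2(CPM + 0.5), feeder-rich minus feeder-poor, within Mut-1 (horizontal) and within Mut-2 (vertical) for genes of 3 lists; the dotted line marks equal differences. Matrix genes lie mostly right of the dotted line, with medians of 1.09 in Mut-1 and 0.41 in Mut-2, and most pluripotency and replication genes lie below 0 in both lines.

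Secreted factors that fibroblasts supply made a list of 28 genes, of which 26 passed the filter, 10 were called higher and none lower (median 0.54). Csf1, the macrophage growth factor, had 192, 179 and 217 CPM in feeder-rich libraries, against 83.0, 109.5 and 98.0 CPM in feeder-poor libraries. Tgfb3, a TGF-beta ligand, had 32.0, 28.2 and 26.1 CPM in feeder-rich libraries, against 14.7, 10.2 and 17.8 CPM in feeder-poor libraries. Ptn, the heparin-binding growth factor pleiotrophin, had 9.04, 6.78 and 6.85 CPM in feeder-rich libraries, against 4.42, 1.36 and 4.88 CPM in feeder-poor libraries. These 3 separated with log2 fold changes of 1.01, 0.99 and 1.07, of which Ptn lost the call at 0.48 without Mut-1 replicate 1. Lif, the cytokine that sustains mouse stem cells and was also in the medium, had 21.9, 23.4 and 26.8 CPM in feeder-rich libraries, against 16.5, 13.1 and 21.7 CPM in feeder-poor libraries. It separated only just, by 21.9 against 21.7 CPM, and its log2 fold change of 0.39 was under the fold required.

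Inflammatory and matrix-degrading genes, listed as the secretion of senescent cells, had 10 of 22 called higher and none lower, and a median of 0.71. Of these 22, 6 are also in the list of secreted factors. Mmp3, the protease stromelysin, had 214, 99.2 and 121 CPM in feeder-rich libraries, against 79.9, 29.6 and 77.8 CPM in feeder-poor libraries, a log2 fold change of 1.24. The groups separated, and the difference was 2.13 in Mut-1 and 0.49 in Mut-2. Without Mut-1 replicate 1 the log2 fold change was 0.504 and the call ended. Ptgs2, which makes prostaglandins, had 161, 183 and 246 CPM in feeder-rich libraries, against 137, 81.3 and 82.7 CPM in feeder-poor libraries, and lost its call without Mut-2 replicate 3 (0.56). Ccl8, a chemokine, was low, with 3.74, 3.67 and 3.05 CPM in feeder-rich libraries, against 1.38, 1.24 and 1.88 CPM in feeder-poor libraries. The 2 arrest genes called higher among 22 p53 and arrest genes were Fas, a death receptor, and Cdkn2b, an inhibitor of cell-cycle kinases. Cdkn2b had 26.5, 24.1 and 29.7 CPM in feeder-rich libraries, against 14.8, 14.3 and 19.8 CPM in feeder-poor libraries. The median of that list was -0.01. Fas and Cdkn2b lost the call without Mut-1 replicate 1, at 0.40 and 0.44.

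The promoter of Mmp3, chosen after its values were seen as a secreted gene with a large fold, is on the plus strand of GRCm38.p6 at chr9:7445572-7445871. Capitals mark TGANTCA, the letters bound by AP-1, which read the same on both strands, beginning 46 bases before the start.
Mmp3: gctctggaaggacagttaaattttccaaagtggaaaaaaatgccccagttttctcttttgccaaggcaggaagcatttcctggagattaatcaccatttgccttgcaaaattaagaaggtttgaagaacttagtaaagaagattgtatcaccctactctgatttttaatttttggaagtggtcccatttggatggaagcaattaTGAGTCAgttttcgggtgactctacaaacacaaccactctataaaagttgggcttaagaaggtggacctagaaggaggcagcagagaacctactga
TGANTCA was in 7.36% of promoters of genes called higher, 5.28% of those of tested genes and 7.81% of all promoters. A form of the kappa B letters (GGG, any 2 bases, TTTCC), searched on both strands, was in 2.62%, 1.68% and 1.63% of the same sets. None of the 4 patterns searched contains another.

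The largest folds of named genes mixed matrix, inflammatory and signalling genes. Scube1, a secreted and membrane-bound EGF-domain protein, had 3.13, 3.90 and 2.30 CPM in feeder-rich libraries, against 1.31, 0.744 and 0.767 CPM in feeder-poor libraries, the largest called fold by the naming rule (log2 1.79). Adra1d, an adrenergic receptor, followed with 4.64, 4.29 and 3.30 CPM in feeder-rich libraries, against 1.31, 0.930 and 1.53 CPM in feeder-poor libraries. Both are low, so each value rests on few counts. Rgs16, a regulator of G-protein signalling, was better covered, with 78.5, 67.3 and 55.5 CPM in feeder-rich libraries, against 27.7, 20.2 and 26.4 CPM in feeder-poor libraries.

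Vcam1, a cell adhesion receptor, had 50.9, 38.3 and 37.8 CPM in feeder-rich libraries, against 16.5, 13.3 and 18.9 CPM in feeder-poor libraries. Adamts5, a protease of matrix proteoglycans, had 55.4, 57.1 and 55.6 CPM in feeder-rich libraries, against 26.5, 24.2 and 18.8 CPM in feeder-poor libraries. Lcn2, an iron-carrier-binding protein of inflammation, had 8.62, 4.69 and 6.35 CPM in feeder-rich libraries, against 2.69, 2.17 and 2.30 CPM in feeder-poor libraries. Each of the 3 was above all feeder-poor libraries in every feeder-rich one. Aspn, Adm, Mmp9, Greb1, Sp100, Pamr1, Ppp1r3b, Itga1 and Zfp677 completed the 15, with log2 fold changes of 1.34 to 1.48. With the replicate block, a fold of Mut-2 replicate 2 over Mut-1 replicate 2, Greb1, Ppp1r3b and Itga1 lost the call, at 0.46, 0.05 and 0.56. The others of the 15 kept it. Without both libraries numbered 1, Ppp1r3b and Itga1 lost it, at 0.57 and 0.56. Sp100 was uneven, with 2.35, 11.5 and 3.80 CPM in feeder-rich libraries. Adm, the peptide adrenomedullin, and Ppp1r3b, which targets a phosphatase to glycogen, were highest in WT-2 replicate 1, at 53.5 and 39.3 CPM, although its matrix share of 1.29% is close to feeder-poor libraries.

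**Figure D3:**
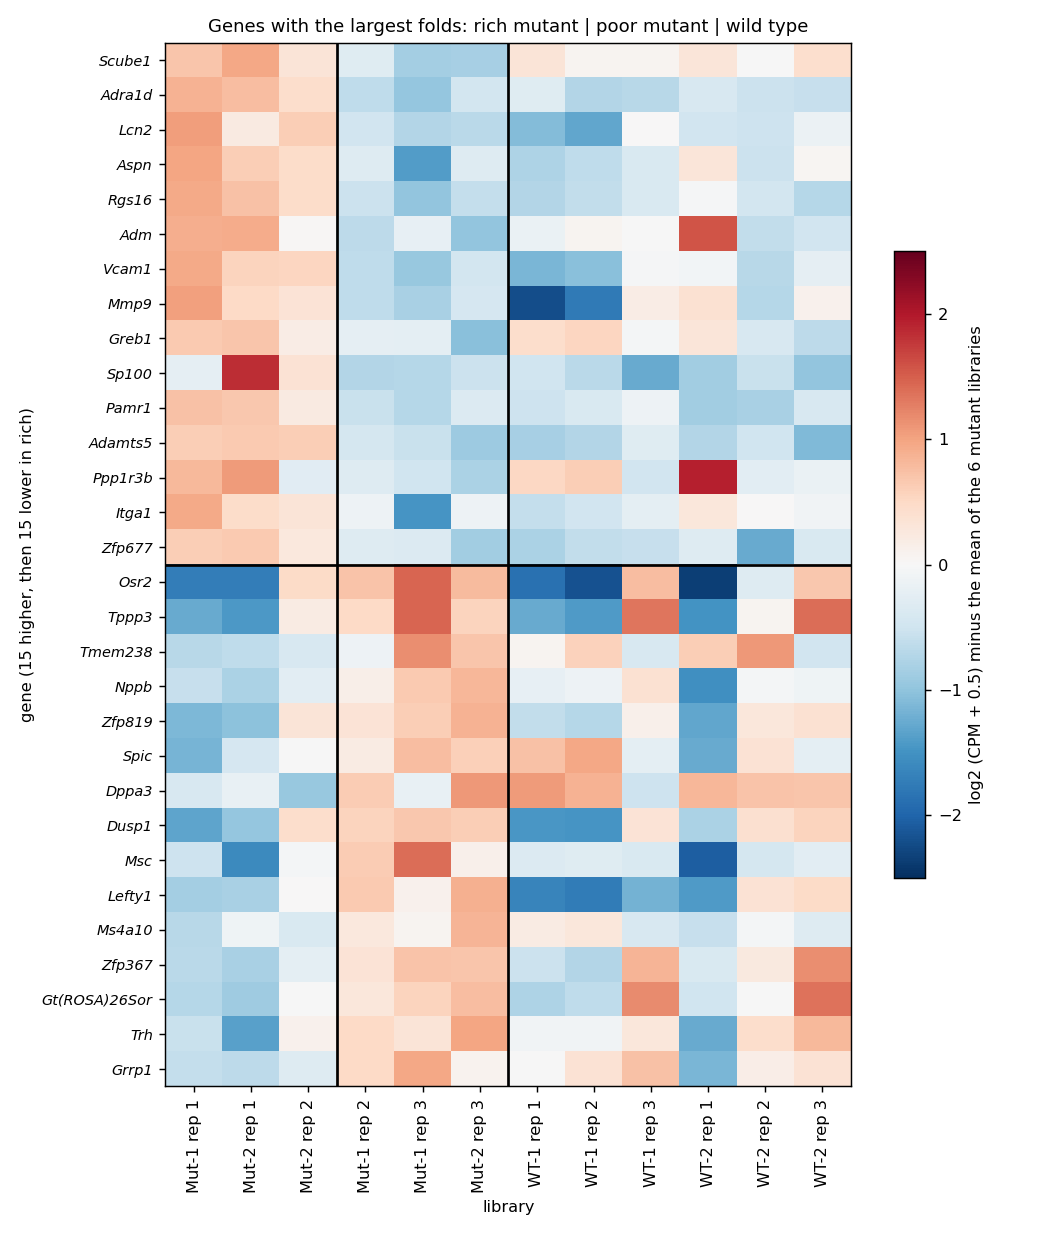
log2(CPM + 0.5) of the 15 higher and 15 lower genes with the largest folds, centred on the mean of the 6 mutant libraries, with feeder-rich libraries left of feeder-poor libraries and wild type at the right (red higher, blue lower). Lower genes such as Osr2 and Dusp1 are blue in both feeder-rich libraries numbered 1 and also in WT-1 replicates 1 and 2 and WT-2 replicate 1, and pale in feeder-rich Mut-2 replicate 2.

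Genes of differentiating stem cells were given beside the fibroblast genes. Of 28 endoderm genes, 22 passed the filter, 7 were called higher and none lower, with a median of 0.53. The 7 were Dab2, an endocytic adaptor, Pdgfra, Thbd, Col4a2, Plat, Col4a1 and Lamb1, which are adaptors, receptors, proteases and basement membrane chains. Dab2 had 26.8, 23.7 and 19.7 CPM in feeder-rich libraries, against 10.01, 7.44 and 10.9 CPM in feeder-poor libraries. The lineage factors Gata4, Gata6, Sox17 and Foxa1 overlapped between the groups. Gata4, chosen after its values were seen, had 19.4, 18.9 and 10.2 CPM in feeder-rich libraries, against 11.5, 16.2 and 6.69 CPM in feeder-poor libraries, so that it was higher in feeder-rich libraries within each line. Ttr, a late endoderm product, was at 0 in every mutant library but Mut-1 replicate 3, at 0.062 CPM. The endoderm list shares Sparc with the matrix list and Pdgfra with the identity list, and the part of fibroblasts in its change was not tested.

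Streak and mesoderm genes had 1 of 16 called higher, Pdgfra, and 1 lower, Cdx2, with a median of 0.27. T, the brachyury factor of the primitive streak, had 1.02, 1.19 and 1.56 CPM in feeder-rich libraries, against 1.24, 0.930 and 2.58 CPM in feeder-poor libraries, and overlapped. Neural genes had none of 17 called higher and 2 called lower, with 11 above 0, a median of 0.19, and 3 separate in each direction. Map2, a neuronal microtubule protein, had 13.0, 11.6 and 11.8 CPM in feeder-rich libraries, against 7.52, 8.06 and 10.04 CPM in feeder-poor libraries, and separated upward below the fold required. Tubb3, a neuronal tubulin, had 33.4, 21.9 and 46.7 CPM in feeder-rich libraries, against 58.3, 61.4 and 71.7 CPM in feeder-poor libraries. Nefl, a neurofilament chain, had 16.0, 12.4 and 18.5 CPM in feeder-rich libraries, against 21.4, 31.2 and 26.5 CPM in feeder-poor libraries. Trophoblast genes had none of 12 called higher and 1 lower, again Cdx2, which both lists hold.

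Markers of other cell types were called at shares near the background. Blood and macrophage genes had 0 of 10 in either direction and a median of -0.12. Members of the list ranged widely: in the 6 mutant libraries Lyz1 was at 0 and C1qa at 0 to 0.373 CPM, while Lyz2 had 1.87 to 5.04 CPM, Spi1 5.16 to 14.6 CPM and Laptm5 234 to 349 CPM. The groups overlapped in each of these 3. Endothelium had 1 of 12 called higher, Flt1, and muscle 1 of 13, Myh11. Cartilage, bone and fat genes had 1 of 10 called higher, Col11a1, a cartilage collagen chain, at 26.6, 20.1 and 18.6 CPM in feeder-rich libraries and 10.8, 5.95 and 13.4 CPM in feeder-poor libraries. Without Mut-1 replicate 1, Flt1 and Col11a1 lost the call, at 0.43 and 0.53. Epithelial genes had none of 15 called. Summed CPM of the blood list was 313 to 331 in feeder-rich libraries and 315 to 415 in feeder-poor libraries.

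Hox genes encode position along the body axis and are active in embryonic fibroblasts. They had 9 of 27 called higher and none lower, with 26 of 27 above 0 and a median of 0.39. Of all tested genes, 8374 lay above 0 and 7599 below. All Hox genes were low, and low genes as a group leaned upward. Of the 3994 genes of lowest mean CPM (up to 3.84), 10.1% were called higher, with a median log2 fold change of 0.25. In the next 3993 genes (up to 19.2 CPM) these values were 7.94% and 0.17. The part of this lean in the Hox calls was not tested. Hoxc6 had 6.69, 6.67 and 6.72 CPM in feeder-rich libraries, against 2.97, 3.16 and 4.74 CPM in feeder-poor libraries, and lost the call without Mut-1 replicate 1 (0.497). Hoxb4 had 3.80, 3.62 and 3.11 CPM in feeder-rich libraries, against 1.66, 2.36 and 1.604 CPM in feeder-poor libraries. The list's summed CPM was 118 to 124 in feeder-rich libraries, 83.0 to 97.1 in feeder-poor libraries and 58.2 to 94.9 in wild type.

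Pluripotency genes were mostly lower in feeder-rich libraries, but by little. Of 30 naive pluripotency genes, 28 had a log2 fold change below 0, 4 were called lower and none higher, and the median was -0.31, or -0.16 without both libraries numbered 1. Pou5f1, the central pluripotency factor, had 239.9, 278 and 311 CPM in feeder-rich libraries, against 313, 302 and 362 CPM in feeder-poor libraries. The pooled groups overlapped, while within each line every feeder-rich library was lower. Nanog, its partner, had 805, 838 and 777 CPM in feeder-rich libraries, against 647, 999 and 873 CPM in feeder-poor libraries, and overlapped too. Pou5f1 and Nanog were chosen after their values were seen.

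The 4 called lower were Dppa3, Lefty1, Klf2 and Gdf3, of which Klf2 and Gdf3 lost the call with the replicate block, at -0.08 and -0.01. Klf2, a naive-state transcription factor, had 176, 153 and 262 CPM in feeder-rich libraries, against 277, 476 and 379 CPM in feeder-poor libraries. Lefty1, an inhibitor of Nodal, had 33.9, 34.7 and 61.6 CPM in feeder-rich libraries, against 96.6, 66.7 and 115 CPM in feeder-poor libraries. Dppa3, a maternal and germline factor, was low, with 2.23, 2.66 and 1.37 CPM in feeder-rich libraries, against 5.11, 2.67 and 7.11 CPM in feeder-poor libraries, so that the groups were only just apart. Formative and primed genes had 2 of 17 called lower (median -0.32). They were Fgf5, a growth factor of the primed epiblast, and Zic2, an epiblast zinc finger factor, with 41.0, 42.0 and 61.4 CPM in feeder-rich libraries, against 66.3, 87.5 and 88.5 CPM in feeder-poor libraries.

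Dividing-cell genes were lower by small folds in many members. Abundant genes as a group were also lower: the 3993 genes of highest mean CPM (57.6 or more) had a median log2 fold change of -0.15. Of 37 replication genes, 36 lay below 0 and 23 separated downward, against 9.87% of all genes, but only Pcna and Gmnn reached the fold (median -0.35). Pcna, the sliding clamp of DNA polymerases, had 261, 303 and 402 CPM in feeder-rich libraries, against 453, 422 and 562 CPM in feeder-poor libraries. Gmnn, the licensing inhibitor geminin, had 55.4, 65.2 and 76.9 CPM in feeder-rich libraries, against 84.1, 81.5 and 109 CPM in feeder-poor libraries. In both, feeder-rich Mut-2 replicate 2 lay nearest to the feeder-poor libraries, and with the replicate block both lost the call, at -0.17 for Pcna and -0.13 for Gmnn. All 24 mitosis genes were below 0 (median -0.22), with none called. Of 12 genes of the mitochondrial genome, 1 was called lower, mt-Nd3, and the median was -0.24. Of 22 genes of the two-cell stage, 21 were below 0 (median -0.38) and 1 was called lower, Zfp352. Nuclear genes of the respiratory chain were below 0 in 24 of 24, with 14 separate and none called (median -0.27). Counts are relative shares of a library, so a lower share and a larger share of other RNA cannot be told apart.

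**Figure D4:**
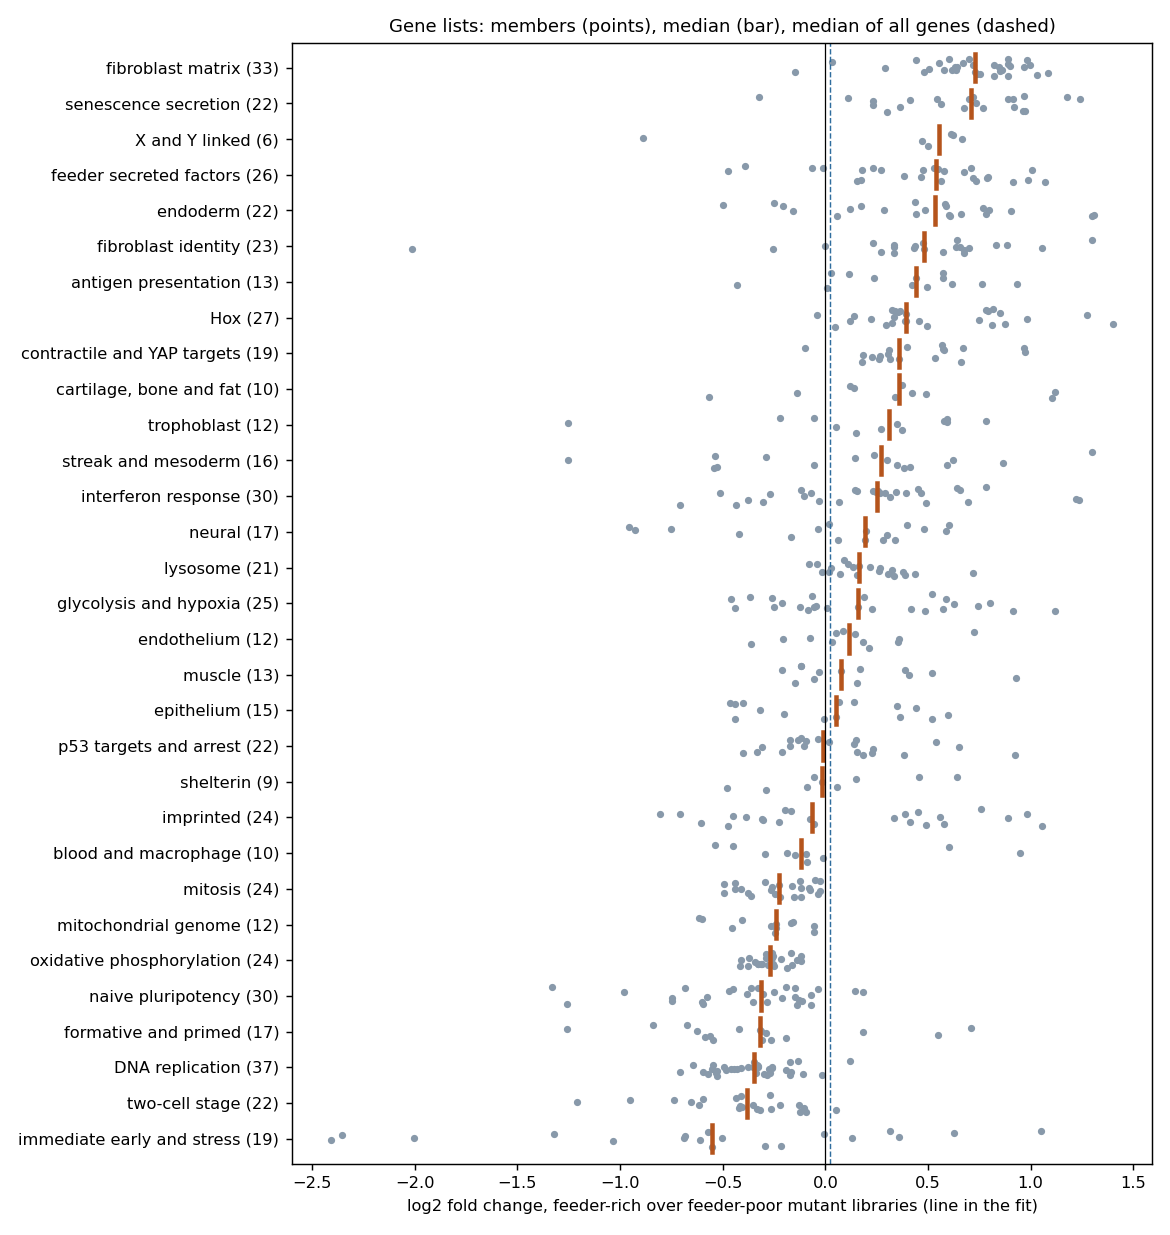
log2 fold change, feeder-rich over feeder-poor mutant libraries, of the members of 31 gene lists (points; number that passed the filter in brackets), ordered by median (bars), with the median of all genes dashed. The medians ran from 0.73 for the matrix list to -0.55 for immediate early genes.

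In several of the genes with the largest downward folds, libraries numbered 1 carried much of the difference. The naive pluripotency list leaned the same way. Its summed CPM was 10454 and 10777 in feeder-rich libraries numbered 1 and 12237 in Mut-2 replicate 2, against 12501 or more in feeder-poor libraries. Dusp1, an immediate early phosphatase that restrains MAP kinases, had 79.2, 100.4 and 268 CPM in feeder-rich libraries, against 291, 315 and 303 CPM in feeder-poor libraries. In wild type, replicates 1 to 3, it had 71.9, 70.7 and 251 CPM in the 3 libraries of WT-1, and 114, 260.3 and 289.5 CPM in the 3 libraries of WT-2. Fos, the AP-1 subunit, had 23.6, 42.3 and 326 CPM in feeder-rich libraries, against 395, 442 and 182 CPM in feeder-poor libraries, and overlapped. Wild-type values of Fos were 5.999, 5.77 and 317 CPM for WT-1, and 28.6, 286 and 301 CPM for WT-2. Low values thus stood in both feeder-rich libraries numbered 1 and in WT-1 replicates 1 and 2 and WT-2 replicate 1, whose matrix shares were 1.05%, 1.09% and 1.29%, and a high value stood in feeder-rich Mut-2 replicate 2. What these libraries share beside low values was not tested.

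Tppp3, a tubulin-binding protein, had 7.17, 6.27 and 20.7 CPM in feeder-rich libraries, against 25.7, 49.8 and 26.6 CPM in feeder-poor libraries. Zfp367, a cell-cycle zinc finger factor, had 28.9, 26.4 and 39.1 CPM in feeder-rich libraries, against 58.7, 76.6 and 75.3 CPM in feeder-poor libraries. Trh, the precursor of thyrotropin-releasing hormone, had 95.7, 54.3 and 151 CPM in feeder-rich libraries, against 199, 176 and 279 CPM in feeder-poor libraries. These separated with log2 fold changes of -1.66, -1.21 and -1.21, and Mut-2 replicate 2 was the highest feeder-rich library in each. Tmem238, Nppb, Zfp819, Spic, Msc, Ms4a10, Gt(ROSA)26Sor and Grrp1 completed the 15 with Osr2, Dppa3, Dusp1 and Lefty1. With the replicate block, Tppp3, Trh, Tmem238, Nppb and Dusp1 lost the call, at -0.31, -0.39, -0.31, -0.48 and -0.11, as did Osr2. In the libraries of that fold, Mut-2 replicate 2 and Mut-1 replicate 2, other genes of the 15 were also close. Zfp819 had 36.3 and 36.5 CPM there, Spic 4.98 and 5.94 CPM, and Gt(ROSA)26Sor 10.2 and 12.6 CPM. Without both libraries numbered 1, Tppp3 lost the call too, at -0.35. Immediate early genes as a list had 1 of 19 called higher, Ier3, and 1 lower, Dusp1, with a median of -0.55, which was -0.04 without both libraries numbered 1.

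Interferon-stimulated genes had 5 of 30 called higher and none lower, but the lines differed in direction, with a median of -0.21 within Mut-1 and 0.52 within Mut-2. Mx2, an antiviral GTPase, had 3.80, 5.76 and 3.86 CPM in feeder-rich libraries, against 2.002, 1.80 and 1.74 CPM in feeder-poor libraries. Ifit3, an antiviral RNA-response protein, had 4.76, 4.80 and 5.41 CPM in feeder-rich libraries, against 2.76, 1.55 and 2.02 CPM in feeder-poor libraries. Both separated in both lines. Its promoter is printed because it holds a doubled match: at chr19:34583279-34583578, plus strand of GRCm38.p6, capitals mark the letters of interferon response elements (GAAA, any 2 bases, GAAA) read on the opposite strand, beginning 156 and 122 bases before the start.
Ifit3: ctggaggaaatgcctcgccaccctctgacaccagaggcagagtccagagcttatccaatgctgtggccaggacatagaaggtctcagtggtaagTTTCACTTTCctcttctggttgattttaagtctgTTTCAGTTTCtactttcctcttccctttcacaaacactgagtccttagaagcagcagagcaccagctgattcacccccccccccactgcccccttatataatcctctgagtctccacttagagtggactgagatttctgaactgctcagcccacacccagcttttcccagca
These letters were in 5.24% of promoters of genes called higher, 2.89% of those of tested genes and 3.44% of all promoters. Antigen presentation genes had 3 of 13 called higher, H2-M3, Psmb9 and Nlrc5, with a median of 0.44. B2m, the light chain of class I molecules, had 287, 299.8 and 307 CPM in feeder-rich libraries, against 173, 179.97 and 223 CPM in feeder-poor libraries, with a fold of 1.49, just under the 1.5 required.

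X and Y linked genes were followed because feeders may differ in sex from the stem cells; the labels do not give the sex of either. Xist, the RNA that silences an X chromosome in female cells, had 44.8, 29.2 and 34.0 CPM in feeder-rich libraries, against 20.99, 24.6 and 26.4 CPM in feeder-poor libraries, and was called higher (log2 fold change 0.62, or 0.26 and not called without Mut-1 replicate 1). Of the Y genes, Kdm5d had 2.05, 2.88 and 2.12 CPM in feeder-rich libraries, against 2.002, 0.992 and 1.46 CPM in feeder-poor libraries. It was called, but it is low and its groups were only just apart. Eif2s3y separated with a log2 fold change of 0.47, under the fold required. Ddx3y and Uty overlapped. Telomere and shelterin genes had 1 of 9 called, Tert, the telomerase catalytic subunit, with 21.8, 24.3 and 16.1 CPM in feeder-rich libraries, against 15.2, 13.8 and 12.5 CPM in feeder-poor libraries. In wild type Tert ran from 17.4 to 33.5 CPM.

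Wild-type libraries, which the division did not use, gave the 1 test. Each gene's slope on a fibroblast score, the mean log2 CPM of Col3a1, Postn and Ctgf, was tested by edgeR's quasi-likelihood test with the line as a term. The score ran from 8.19 to 8.68 in feeder-rich libraries, 7.32 to 7.64 in feeder-poor libraries and 6.999 to 7.70 in wild type, where WT-1 replicate 3 was highest. Of 15787 genes, 0 passed at an adjusted p of 0.05 (smallest 0.434), and DESeq2 called 52 positive and 12 negative. At an unadjusted p under 0.05, 1073 (6.8%) had a positive and 706 (4.47%) a negative slope. These counts depend on WT-1 replicates 1 and 2, which were close, standing as separate libraries. With the 2 summed, they were 262 and 179 of 16202 genes. With the matrix list's share as the score, they were 165 and 44. The libraries are called technical replicates, so these p-values measure only their spread.

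Of the genes called higher in feeder-rich libraries, 847 had a slope, and 72.0% of these slopes were above 0, against 51.8% of all genes. At an unadjusted p under 0.05, 129 of the 847 (15.2%) were positive and 4 negative. That fit counts the close WT-1 replicates 1 and 2 as separate libraries. With the 2 summed, 70.4% of 862 slopes of called higher genes were above 0, against 49.1% of all genes. Called lower genes had 219 slopes with the 2 kept separate, 56.2% above 0. At an unadjusted p under 0.05 by edgeR, 16 of these (7.31%) were positive and 8 (3.65%) negative, against 6.8% and 4.47% of all genes. The called lower genes thus did not run opposite to the score in wild type. The largest positive slopes by p were Col6a1, Col6a2 and Bgn, matrix genes, Btg1, an antiproliferative factor, and Ptx3, an innate immune pentraxin. Col6a1 had a slope of 1.54 (SE 0.21, unadjusted p = 0.00016, adjusted p = 0.434 by edgeR), and Bgn 1.30. Negative slopes were led by Isyna1, Olig1, Olig2, Zfp574 and Dppa3. Dppa3, also lower in feeder-rich libraries, had a slope of -2.42 (SE 0.51). Other genes called lower had positive slopes, among them Osr2 (4.05, SE 1.71), Tppp3 (3.47, SE 1.52) and Dusp1 (2.47, SE 0.74). Without WT-1 replicate 3 the share of called higher genes with a slope above 0 was 59.7%, against 50.4% of all genes, while their median slope was 1.04, against 0.45 with it. The scores left then spanned only 6.999 to 7.05 in WT-1 and 7.28 to 7.40 in WT-2. A slope per unit of score reaches far beyond these spans, so the larger median is not read as a stronger relation.

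**Figure D5:**
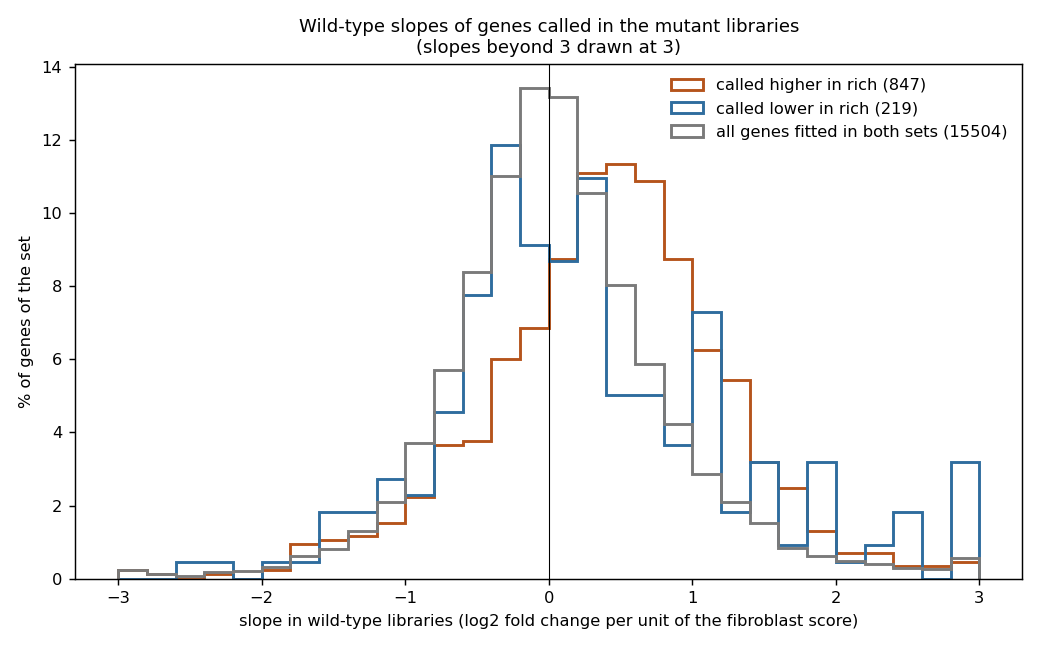
Distribution of slopes on the fibroblast score in the 6 wild-type libraries (log2 fold change per unit of the score, slopes beyond 3 drawn at 3) for genes called higher (847) or lower (219) in feeder-rich mutant libraries and for the 15504 genes fitted in both sets of libraries, as percent of each set, without Col3a1, Postn and Ctgf. Called higher genes lie right of all genes, with 72.0% above 0 against 51.8%.

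In 21 lysosomal genes all 21 wild-type slopes were above 0, 17 of them at an unadjusted p under 0.05 by edgeR. Of all genes, 51.8% had a slope above 0 and 6.8% a positive one at that p. The list's summed CPM was 3338, 3387 and 5402 in WT-1 replicates 1 to 3, and 4131, 3975 and 4644 in WT-2. In WT-2 the score was 7.38, 7.40 and 7.28, so within that line the list did not rise with it. Only 1 lysosomal gene, Lipa, an acid lipase, was called higher in feeder-rich mutant libraries, where the median log2 fold change was 0.16. Lipa had 32.2, 27.7 and 29.4 CPM in feeder-rich libraries, against 16.5, 16.3 and 20.7 CPM in feeder-poor libraries, and lost the call without Mut-1 replicate 1 (0.46). Across 13271 genes the mutant fold and the wild-type slope correlated with r = 0.24 and rho = 0.30, a description over genes that are not independent.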

How the data were processed

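RNA-seq was deposited as a table of raw read counts per gene, with 1 column per library and 31641 gene symbols, not normalized by the authors. Tools in the submitters' processing notes are HTSeq 0.6.0, HISAT2 2.1.0, Bowtie2 2.2.3 and bcl2fastq, with build GRCm38. Which did what, which annotation served and whether strand was used is not given in the sources used here. If strand was ignored, a gene's reads may include those of a gene on the other strand. The members and gene lists were chosen with earlier results of these data known. Genes whose values are named follow a rule (15 per direction by fold, 4 per list, at least 2 CPM); Acta2, Gata4, Lif, Nanog, Pcolce, Pou5f1 and T lie outside it and were chosen after their values were seen, as were members named only as called or at 0.

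CPM used TMM over the 12 libraries. The fold came from edgeR 4.0.16 (R 4.3.3) on the 6 mutant libraries after filterByExpr, with line as a term; wild-type slopes used edgeR's quasi-likelihood test with Benjamini-Hochberg adjustment over all genes. The fits were also run on simulated data, with independent libraries, the same dispersion for every gene and no line or replicate effects. That run does not cover the line differences, replicate differences and close libraries of the real data. Deviations of libraries with the same replicate number correlated at 0.493, 0.137 and 0.344 between the mutant lines. Between the wild-type lines these correlations were 0.193 to 0.621. Libraries with different numbers were not compared, and in the mutant lines the numbers run with the feeder division. Whether the numbers pair libraries was therefore not tested. WT-1 replicates 1 and 2 were close, with a chi-square per degree of freedom of 1.66 against 12.0 to 42.5 in other pairs within lines, yet above sampling noise, so both stayed in the fit. Alternatives were DESeq2 1.42.0, other scalings, filters, the block and left-out libraries. Positions are from GENCODE M21 on GRCm38, with 29387 symbols matched by name and 186 by an older name, and 2068 not matched.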

Additional observations from a re-analysis of the deposited data

Results flagged for a closer look

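Chance flags about 1 in 20 groups, and 32 sets of 6 wild-type libraries were checked. WT-2 replicate 1 stood apart in summed CPM of naive pluripotency genes (10050.3, others 11817 to 12743), formative and primed genes (639, others 869.8 to 988), streak and mesoderm genes (61.1, others 44.0 to 49.1), two-cell stage genes (195, others 299 to 345) and mitochondrial genome genes (23618, others 31129 to 34604). WT-1 replicate 3 stood apart in blood and macrophage genes (391, others 253 to 293) and endothelium (292, others 195 to 220.4). WT-2 replicate 3 stood apart in endoderm genes (1918, others 2259 to 2365) and respiratory chain genes (6993, others 6675 to 6769). For each, the library lay far from the other 5.

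In 6 of 31 lists every feeder-rich library of 1 mutant line moved one way and every one of the other line the opposite way; the difference between the lines was not tested. The log2 ratios of summed CPM, feeder-rich over feeder-poor, were -0.13 in Mut-1 and 0.76 in Mut-2 for endothelium, and -0.069 and 0.32 for muscle. They were -0.21 in Mut-1 and 0.15 in Mut-2 for cartilage, bone and fat, and -0.20 and 0.27 for interferon response. For p53 targets and arrest they were 0.26 in Mut-1 and -0.25 in Mut-2, and for glycolysis and hypoxia -0.35 and 0.05.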

How the results depend on the processing

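The matrix share ratio of 1.80 moved by less than the spread between libraries under all alternatives run. No called fold of a named gene reversed its direction. Since 0 slopes passed in the main fit, slopes had no called direction to reverse. Counts moved over 1.5-fold as follows. With no filter on low counts, 1404 genes were called higher and 584 lower, and 1 gene had a negative wild-type slope that passed. At 2-fold, 237 were higher and 53 lower. With the replicate block, which replaces the line term, 100 were lower, and 720 higher; for the slopes it changed no call. Without both libraries numbered 1, tried only once the data were known, 546 were lower. Leaving out 1 mutant library gave 917 to 1770 higher and 250 to 824 lower, since fewer libraries separate more easily. Slopes that passed were 0 to 25 positive and 0 to 15 negative when 1 wild-type library was left out (25 and 15 without WT-2 replicate 3), and 52 and 12 by DESeq2. Among named genes across alternatives, 110 values lost the call, 73 gained it, 153 moved and 1731 stayed. Genes near 1 CPM rest on few counts in each library.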

Other observations

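Gene classes differed in their share of calls. Of 609 processed pseudogenes, 3 were called higher and 28 lower in feeder-rich libraries (median log2 fold change -0.27), against 833 higher and 147 lower of 13955 protein-coding genes. Small nucleolar RNAs had 0 of 37 higher and 4 lower. By expression, the 3994 genes of lowest mean CPM had a median log2 fold change of 0.25 and the 3993 of highest mean CPM one of -0.15. Of the called genes, 77 higher and 86 lower have predicted names.

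In wild type, the genes called higher in feeder-rich libraries were most often highest in WT-2 replicate 1 (34.5%, against 25.6% of all genes) and WT-1 replicate 3 (30.2%, against 20.2%). The genes called lower were most often lowest in WT-2 replicate 1 (46.8%, against 23.5%). Among imprinted genes, Dcn and Sgce were called higher and Phlda2 lower, of 24. H19, an imprinted noncoding RNA, had 35.6, 26.3 and 14.0 CPM in feeder-rich libraries, against 23.7, 19.3 and 7.39 CPM in feeder-poor libraries, and overlapped, while it separated within each line.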
